A study of Mus musculus with 16 samples.

Results

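Apol7c, Nudt17, Cacnb3, Eno2, Zmynd15, Samsn1, Laptm4b, Tmem123 and Gadd45b are 9 genes of the maturation programme of conventional type 1 dendritic cells (cDC1s) that lie outside its chemokine, NF-kB and checkpoint families. They were selected on their higher level in mature than in immature cDC1s in these same libraries, so that their maturation values are given as a description, without a test. They are 9 of the 24421 genes in the count table, and all 9 were among the 11978 genes that passed the filter on low counts. Eno2 passed it through its mature libraries only.

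Bulk RNA sequencing was performed on cDC1s sorted from the spleens of C57BL6 mice at steady state. The 16 libraries form 4 groups of 4: mature cells of Xbp1flIre1fl mice, mature cells of Xbp1fl mice, immature cells of Xbp1flIre1fl mice and immature cells of Xbp1fl mice. The mature cells are described as homeostatic, which means that they matured without infection. In both genotypes the named alleles are flanked by loxP sites but were not knocked out, and both are described as functionally wild type. Ire1 (gene symbol Ern1) is a stress sensor of the endoplasmic reticulum, and Xbp1 is the transcription factor it activates. Their transcripts were present in every library: Xbp1 averaged 83.4 ± 8.43 CPM in mature cells and 114 ± 11.5 CPM in immature cells, and Ern1 24.1 ± 2.67 CPM in mature cells and 30.3 ± 3.33 CPM in immature cells (CPM, scaled counts, SD, n = 8 each). Such counts per gene do not show whether the stretches flanked by loxP sites were intact. The sort gates and the ages of the mice are not given in the sources used here. Nothing states that each library is a different mouse, so p-values reflect a library-to-library spread that may be technical.

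cDC1s take up dead cells and present their antigens to CD8 T cells. A fraction of them matures in the healthy spleen: these cells acquire the homing receptor Ccr7 and carry antigen to T cells. Most of the 9 genes are known mainly from other tissues. Tmem123, Laptm4b and Apol7c encode membrane or lipid-binding proteins, Cacnb3 a calcium channel subunit, Eno2 and Nudt17 enzymes, and Samsn1, Zmynd15 and Gadd45b regulators of signalling and transcription.

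The libraries held 13948232 to 16572576 counts in mature and 15083053 to 17000763 counts in immature cells. Levels are counts scaled to library size with TMM factors (CPM). A count of 3 corresponded to 0.161 to 0.231 CPM, and such floors cover counting error only. The labelled cell type was checked on Xcr1 and Clec9a, receptors that define cDC1s, which averaged 572 ± 102 CPM in mature cells and 782 ± 51.7 CPM in immature cells for Xcr1 and 159.8 ± 25.4 CPM in mature cells and 199 ± 9.41 CPM in immature cells for Clec9a (SD, n = 8 each). Ccr7 ranged between 4988 and 13425 CPM in mature libraries and between 107 and 320 CPM in immature ones. Mature Xbp1flIre1fl libraries 2 and 4 had the lowest mature Ccr7, at 6574 and 4988 CPM. Their Xcr1 was at 709 and 689 CPM, against 434 and 437 CPM in libraries 1 and 3 of that group. Their Clec9a was at 195 and 171 CPM, against 137 and 111 CPM. Immature Xbp1fl library 3 had the highest immature Ccr7. Markers of other cells moved with the stage as well. All 11 B cell markers were higher in mature libraries, with a summed level of 339 to 1172 CPM against 109.9 to 174 CPM in immature libraries, and Ms4a1, the highest in CPM, averaged 171 ± 59.4 CPM in mature cells and 43.8 ± 7.85 CPM in immature cells. Of 12 macrophage markers 9 were higher, with sums of 597 to 1239 CPM in mature libraries and 176 to 697 CPM in immature ones, with Vcam1 highest in CPM at 348 ± 77.9 CPM in mature cells and 80.5 ± 34.4 CPM in immature cells. Of the other lists, 6 of 9 cDC2, 6 of 8 T cell, 4 of 5 plasma cell and 2 of 8 plasmacytoid dendritic cell markers were higher, and 0 of 7 NK cell, 0 of 6 neutrophil, 0 of 3 erythroid and 1 of 5 stromal markers. Highest in CPM among them were Jchain at 222 ± 155 CPM in mature cells and 123 ± 47.7 CPM in immature cells, Clec12a at 148 ± 10.8 CPM in mature cells and 151 ± 11.2 CPM in immature cells and Klrk1 at 57.7 ± 7.76 CPM in mature cells and 116 ± 9.89 CPM in immature cells. Ly6d, Pecam1, Il7r and Mpo averaged 51.2, 40.0, 18.8 and 5.96 CPM in mature cells and 10.5, 57.7, 1.95 and 9.57 CPM in immature cells. Hba-a1 and Hba-a2, which encode haemoglobin, were at 0 in all libraries. Erythroid RNA was not absent: Alas2, the highest of that list in CPM, averaged 7.83 ± 4.10 CPM in mature cells and 9.92 ± 7.34 CPM in immature cells. No B cell or macrophage marker was at 0 in all libraries of a stage, and the part of these cells in the results on the 9 genes was not tested. In bulk RNA a different number of cells and a different amount of RNA per cell cannot be told apart.

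The DNA just upstream of the genes is shown first, since the 9 genes move together and their start regions differ in kind. RefSeq (GRCm38.p6) lists 9 promoter windows for 7 of them, each of 300 bases, from 250 bases before to 50 bases after a transcription start. The windows ran from 0 CpG dinucleotides for Apol7c and 5 for Samsn1 to 26 for the first Tmem123 window and 29 for the second Cacnb3 window, with a median of 7 over all 32851 windows in the table. In the Apol7c window (chr15:77533266-77533565, minus strand) capitals mark matches to the interferon regulatory factor motif GAAANNGAAA, here on the opposite strand. In the windows of Samsn1 (chr16:75909217-75909516, minus strand), Tmem123 (chr9:7763915-7764214, plus strand) and Gadd45b (chr10:80929841-80930140, plus strand) capitals mark CpG dinucleotides. The Samsn1 window belongs to a start inside the annotated span of the gene.
Apol7c: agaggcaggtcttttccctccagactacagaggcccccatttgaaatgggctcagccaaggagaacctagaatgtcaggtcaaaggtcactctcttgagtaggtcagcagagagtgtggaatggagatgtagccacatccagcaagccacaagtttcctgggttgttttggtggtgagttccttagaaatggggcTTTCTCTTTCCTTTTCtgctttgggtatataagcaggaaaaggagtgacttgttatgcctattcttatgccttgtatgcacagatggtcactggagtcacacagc
Samsn1: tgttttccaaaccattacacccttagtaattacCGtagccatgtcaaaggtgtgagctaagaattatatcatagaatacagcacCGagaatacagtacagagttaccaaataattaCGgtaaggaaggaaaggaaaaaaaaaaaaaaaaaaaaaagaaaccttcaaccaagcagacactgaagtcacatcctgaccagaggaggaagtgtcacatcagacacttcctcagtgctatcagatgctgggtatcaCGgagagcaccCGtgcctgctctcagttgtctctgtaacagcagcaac
Tmem123: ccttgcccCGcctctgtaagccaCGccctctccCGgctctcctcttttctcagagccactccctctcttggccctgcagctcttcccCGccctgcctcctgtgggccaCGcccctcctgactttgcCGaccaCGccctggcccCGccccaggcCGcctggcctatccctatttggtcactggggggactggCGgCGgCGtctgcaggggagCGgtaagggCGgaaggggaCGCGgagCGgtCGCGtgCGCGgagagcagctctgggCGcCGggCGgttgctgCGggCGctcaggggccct
Gadd45b: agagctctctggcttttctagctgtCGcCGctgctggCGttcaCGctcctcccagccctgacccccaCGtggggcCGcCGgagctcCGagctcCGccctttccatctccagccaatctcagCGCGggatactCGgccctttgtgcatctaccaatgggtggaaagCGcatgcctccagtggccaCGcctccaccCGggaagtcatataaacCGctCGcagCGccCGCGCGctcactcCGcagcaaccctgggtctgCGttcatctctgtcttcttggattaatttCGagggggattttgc
The Apol7c window holds 2 overlapping matches that start at positions -55 and -49 from the transcription start, and no CpG. It was the 1 window of the 9 with this motif, which 3.44% of all windows hold. The PU.1 core GAGGAA was in 1 of the 9 windows, that of Samsn1, against 28.3% of all windows. The hypoxia response core ACGTG was also in 1, that of Gadd45b, against 19.6% of all. The NF-kB consensus (8.46% of all windows), the AP-1 motif TGANTCA (7.81%) and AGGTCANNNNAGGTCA, the direct repeat bound by LXR receptors (0.015%), were found in none of the 9. Both strands were searched. Matches are descriptions of these windows, not sites shown to be bound.

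**Figure D1:**
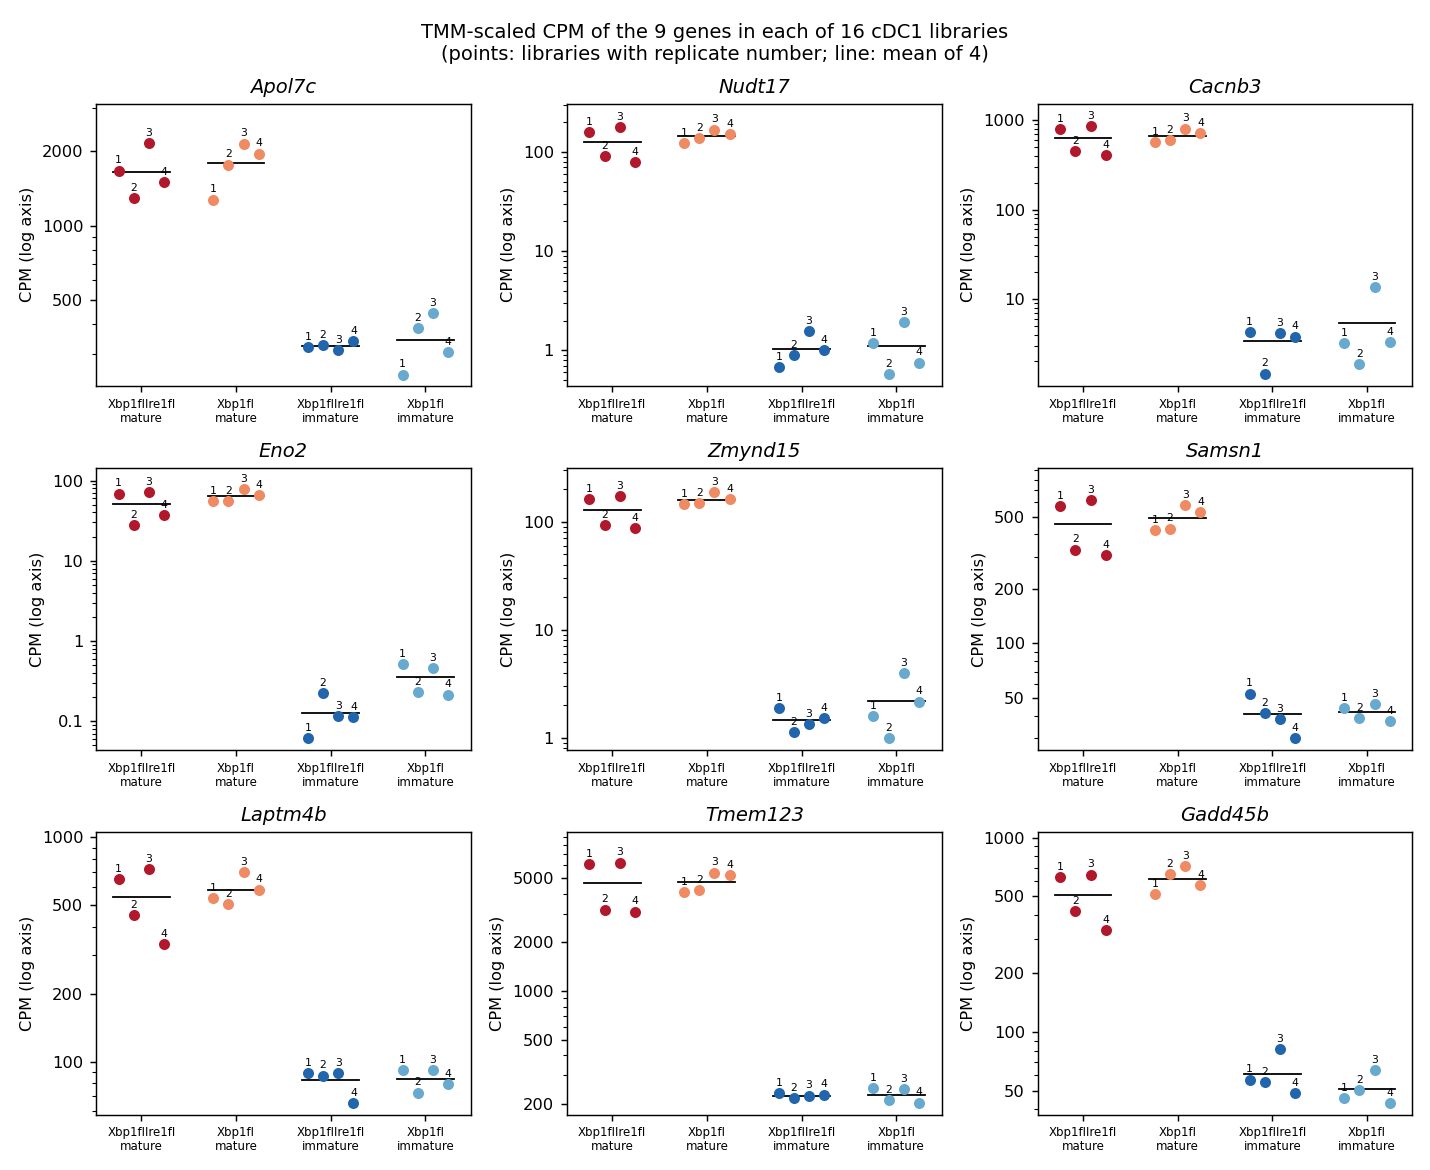
TMM-scaled CPM on a log axis for each of the 9 genes. Each point is 1 library with its replicate number, each line the mean of 4 libraries, with mature groups on the left. All mature points lie above all immature points for each gene.

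The 9 genes were higher in every mature than in every immature library. This holds for 2151 of the 11978 tested genes (18.0%), and the 9 were chosen by this contrast. Over all tested genes 3995 were called higher in mature cells (33.4%) and 4100 lower (34.2%), at an adjusted p under 0.05 from edgeR's quasi-likelihood test. Library sizes alone gave 2716 higher and 6091 lower, and upper quartile scaling 3213 higher and 5237 lower. The fold change, mature over immature, ran from 5.14-fold for Apol7c to 256-fold for Eno2, with a median log2 fold change of 4.37 over the 9 and -0.009 over all tested genes. The other 30 genes of the maturation list, itself chosen on such data, were all called higher, with a median of 3.28. Examples are Aldh1a2, an enzyme of retinoic acid synthesis, at 3.56, Serpinb6b at 1.70 and Anxa3 at 6.24 on the log2 scale. Of 19 cDC1 identity genes 5 were higher, 11 lower and 3 did not pass, with the uptake receptor Ly75 at 2.14, the transcriptional regulator Id2 at 1.02 and Rab7b at -0.70.

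Tmem123 (chr9:7764041-7794333, plus strand, GRCm38) encodes porimin, a mucin-like protein of the cell surface described in human cells undergoing oncotic death. It had 6055, 3186, 6219.9 and 3089.8 CPM in Xbp1flIre1fl mature libraries 1 to 4 and 4083, 4209, 5389.9 and 5220.3 CPM in Xbp1fl mature libraries 1 to 4. Levels were 232, 216, 225 and 228 CPM in Xbp1flIre1fl immature libraries 1 to 4 and 251, 210.2, 246 and 204 CPM in Xbp1fl immature libraries 1 to 4. The 8 mature values lie far above the immature ones, and among them Xbp1flIre1fl libraries 2 and 4 are the lowest. Tmem123 averaged 4682 ± 1219 CPM in mature libraries and 227 ± 16.6 CPM in immature libraries (SD, n = 8 each), a log2 fold change of 4.37 ± 0.16 (SE). The lowest mature value was 12.3 times the highest immature value. Tmem123 ranked 18 among all tested genes by mean CPM in mature cells. Its immature values had a coefficient of variation of only 7.32%, against 26.03% in mature libraries. Of 6 other tested sialomucins, 3 were higher and 3 lower. Selplg, the selectin ligand PSGL-1 and the highest of them in CPM, averaged 1298 ± 139 CPM in mature cells and 744 ± 27.4 CPM in immature cells (log2 fold change 0.80, adjusted p = 3.71e-09). Cd34, a marker of progenitors, fell by 2.07 on the log2 scale (adjusted p = 2.20e-09), and Cd99l2, an adhesion protein, fell by 1.07 (adjusted p = 5.32e-07).

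Laptm4b (chr15:34238028-34284302, plus strand) encodes a lysosomal membrane protein that in human cells brings a leucine transporter to the lysosome. It had 653, 451, 720.4 and 335 CPM in Xbp1flIre1fl mature libraries 1 to 4 and 534, 505, 701 and 586 CPM in Xbp1fl mature libraries 1 to 4. In immature cells it had 89.0, 86.5, 88.5 and 65.4 CPM in Xbp1flIre1fl immature libraries 1 to 4 and 91.5, 72.7, 91.9 and 79.1 CPM in Xbp1fl immature libraries 1 to 4. Immature libraries spread little, with Xbp1flIre1fl library 4 the lowest, and the groups do not overlap. The means were 561 ± 132 CPM in mature libraries and 83.1 ± 9.72 CPM in immature libraries (SD, n = 8 each), with a log2 fold change of 2.75 ± 0.15 (SE). Its relative Laptm4a averaged 184 ± 14.6 CPM in mature cells and 145 ± 6.94 CPM in immature cells (log2 fold change 0.34, adjusted p = 1.49e-05). Laptm5, the family member of blood cells, averaged 1973 ± 139 CPM in mature cells and 1980.0 ± 67.9 CPM in immature cells and did not pass the test (log2 fold change -0.01, adjusted p = 0.930), but was called lower with library sizes alone (-0.23, adjusted p = 0.00134). Among 22 genes of the transporter and of lysosomal amino acid sensing, 10 were higher, 8 lower and 4 did not pass. Rragd, a Rag GTPase that recruits mTORC1 to lysosomes, averaged 18.8 ± 6.85 CPM in mature cells and 0.577 ± 0.447 CPM in immature cells, a log2 fold change of 5.01 (adjusted p = 1.81e-08). Rptor, the mTORC1 scaffold, and Tfe3, a transcription factor of lysosomal genes, rose by 1.59 and 0.92 on the log2 scale (adjusted p = 2.40e-09 and 4.91e-09).

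Apol7c (chr15:77524852-77533316, minus strand) belongs to the apolipoprotein L family, lipid-binding proteins named after a human serum protein that lyses trypanosomes. Its levels were 1673, 1292, 2159 and 1502 CPM in Xbp1flIre1fl mature libraries 1 to 4 and 1276, 1768, 2153 and 1960.3 CPM in Xbp1fl mature libraries 1 to 4. Immature levels were 321, 327, 312 and 341 CPM in Xbp1flIre1fl immature libraries 1 to 4 and 248.8, 384, 440.3 and 307 CPM in Xbp1fl immature libraries 1 to 4. Apol7c was the member with the highest immature level per length and with the smallest fold change. It averaged 1723 ± 352 CPM in mature libraries and 335 ± 56.8 CPM in immature libraries (SD, n = 8 each), a log2 fold change of 2.36 ± 0.14 (SE). Its lowest mature value was in Xbp1fl library 1, not in Xbp1flIre1fl library 2 or 4 as for the other genes. Of its 50-base exon words, 25.6% also occur in transcripts of 5 other genes, mostly Gm8221, Apol7a and Apol7e, and how reads shared by such copies were counted is not given in the sources used here. Apol7a and Apol7e, which did not pass the filter, averaged 0.307 and 0.416 CPM in mature libraries. Of the 14 family members listed in the count table, 3 passed the filter. The other two, Apol10b at 83.0 ± 17.2 CPM in mature cells and 9.998 ± 3.09 CPM in immature cells and Apold1 at 2.55 ± 0.789 CPM in mature cells and 1.27 ± 0.559 CPM in immature cells, rose by 3.08 and 1.09 on the log2 scale (adjusted p = 1.31e-10 and 3.85e-04).

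Cacnb3 (chr15:98630840-98644529, plus strand) encodes an auxiliary beta subunit of voltage-gated calcium channels, which carries the pore-forming subunit to the membrane. Cacnb3 had 802, 449, 860.5 and 406 CPM in Xbp1flIre1fl mature libraries 1 to 4 and 572, 603, 809 and 715 CPM in Xbp1fl mature libraries 1 to 4. It had 4.28, 1.46, 4.14 and 3.79 CPM in Xbp1flIre1fl immature libraries 1 to 4 and 3.18, 1.86, 13.5 and 3.28 CPM in Xbp1fl immature libraries 1 to 4. Xbp1fl immature library 3 stands apart from the other 7 immature libraries. Mean levels were 652 ± 171 CPM in mature libraries and 4.43 ± 3.79 CPM in immature libraries (SD, n = 8 each), and the log2 fold change was 7.24 ± 0.39 (SE). Without that library the log2 fold change was 7.72. Cacnb3 also had the widest spread of the 9, with a biological coefficient of variation of 0.492 against a median of 0.122 over all tested genes. Of 10 other tested calcium channel subunits, 8 were higher and 2 lower. Only 11 of the 26 listed subunits passed the filter on low counts, Cacnb3 among them. Cacna1i, Cacng6 and Cacng8 reached at most 0.466, 0.0575 and 0.497 CPM in any immature library, and Cacna1d averaged 0.155 CPM in them. These genes passed the filter through their mature libraries, which favoured a call as higher. Cacnb1, another beta subunit, averaged 16.6 ± 3.40 CPM in mature cells and 1.35 ± 0.326 CPM in immature cells (log2 fold change 3.61, adjusted p = 1.59e-11). Cacna1d, a pore-forming subunit, averaged 3.84 ± 1.56 CPM in mature cells and 0.155 ± 0.231 CPM in immature cells (log2 fold change 5.01, adjusted p = 8.25e-08). Cacna1s, the pore subunit known from skeletal muscle and the highest of them in CPM, averaged 58.7 ± 5.64 CPM in mature cells and 37.3 ± 3.77 CPM in immature cells (log2 fold change 0.66, adjusted p = 3.41e-07). Cacng6, a gamma subunit, had 135 counts in the mature and 2 in the immature libraries, a ratio of 81.8 with a 95% counting interval of 22.2 to 683. In the 12 genes of calcium entry from stores, 6 were higher, 2 lower and 4 did not pass, (4 lower with upper quartile scaling or library sizes alone), with Orai1 and Itpr3 higher by 0.38 and 0.68 and the calcium pump Atp2a2 at -0.47 on the log2 scale (adjusted p = 2.99e-07, 3.60e-07 and 1.47e-07).

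Eno2 (chr6:124760053-124769673, minus strand) encodes the enolase of neurons, a glycolytic enzyme. Its levels in mature cells were 68.6, 27.6, 71.2 and 37.3 CPM in Xbp1flIre1fl mature libraries 1 to 4 and 55.2, 55.6, 77.3 and 65.7 CPM in Xbp1fl mature libraries 1 to 4. Eno2 was at 0.0621, 0.224, 0.115 and 0.112 CPM in Xbp1flIre1fl immature libraries 1 to 4 and 0.510, 0.233, 0.457 and 0.215 CPM in Xbp1fl immature libraries 1 to 4. The immature values rest on 34 counts in 8 libraries, 25 of them in Xbp1fl and 9 in Xbp1flIre1fl libraries, so that most lie near the floor. It averaged 57.3 ± 17.3 CPM in mature libraries and 0.241 ± 0.163 CPM in immature libraries (SD, n = 8 each), and its log2 fold change of 7.998 ± 0.30 (SE) ranked 11 among all tested genes. Eno3, the enolase of muscle, averaged 249.3 ± 58.2 CPM in mature cells and 15.2 ± 3.31 CPM in immature cells (log2 fold change 4.04, adjusted p = 5.41e-11). Eno1, the enolase of most tissues, was listed at only 1.95 ± 0.400 CPM in mature cells and 2.30 ± 0.627 CPM in immature cells (adjusted p = 0.295). Over all its annotated transcripts, 1432 of its 5509 50-base words (25.99%) are shared with 23 other genes, mostly Eno1b. How reads from such words were counted is not given, so that the listed level of Eno1 may be too low. Of 19 other glycolysis genes 4 were higher, 8 lower and 7 did not pass. Aldoa, aldolase, rose by 0.69 and Tpi1, triose phosphate isomerase, fell by 0.58 on the log2 scale (adjusted p = 4.47e-10 and 8.58e-08). Among 18 other targets of hypoxia-inducible factors 6 were higher, 9 lower and 3 did not pass. Pfkfb3, which drives glycolytic flux, averaged 979 ± 248 CPM in mature cells and 68.4 ± 7.33 CPM in immature cells (log2 fold change 3.84, adjusted p = 2.73e-11), and Ndrg1 and Pdk1 had log2 fold changes of 1.58 and -0.73 (adjusted p = 2.06e-08 and 1.73e-07).

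Nudt17 (chr3:96706067-96708562, minus strand) encodes a Nudix hydrolase, of an enzyme family that cleaves nucleoside diphosphates linked to other groups. It had 158, 91.0, 177 and 79.1 CPM in Xbp1flIre1fl mature libraries 1 to 4 and 123, 139, 168 and 150.3 CPM in Xbp1fl mature libraries 1 to 4. Immature libraries gave 0.683, 0.897, 1.55 and 1.00 CPM in Xbp1flIre1fl immature libraries 1 to 4 and 1.19, 0.582, 1.94 and 0.753 CPM in Xbp1fl immature libraries 1 to 4. Every mature library exceeded every immature one by at least 40.7 times, and the immature values rest on 151 counts in all. The means were 136 ± 35.6 CPM in mature libraries and 1.08 ± 0.468 CPM in immature libraries (SD, n = 8 each), a log2 fold change of 6.97 ± 0.25 (SE). Of the 20 other tested Nudix genes 1 was higher, 11 lower and 8 did not pass. The 1 higher gene was Nudt9, an ADP-ribose hydrolase and the highest of the family in CPM, which averaged 273 ± 45.9 CPM in mature cells and 96.1 ± 15.5 CPM in immature cells (log2 fold change 1.51, adjusted p = 3.07e-08). Nudt5 and Nudt21, a subunit of the pre-mRNA cleavage machinery, fell by 0.70 and 0.49 on the log2 scale (adjusted p = 7.07e-08 and 5.07e-07).

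Samsn1 (chr16:75858793-76022281, minus strand) encodes an adaptor with SH3 and SAM domains that dampens B cell responses in mice. Levels of Samsn1 were 570.0, 329, 614 and 306 CPM in Xbp1flIre1fl mature libraries 1 to 4 and 420.0, 429, 576 and 531 CPM in Xbp1fl mature libraries 1 to 4. It had 52.95, 41.3, 38.4 and 30.0 CPM in Xbp1flIre1fl immature libraries 1 to 4 and 44.0, 38.9, 46.3 and 37.5 CPM in Xbp1fl immature libraries 1 to 4. Mature values fall into a low pair and 6 higher libraries, and all exceed the immature range. Samsn1 averaged 472 ± 117 CPM in mature libraries and 41.2 ± 6.81 CPM in immature libraries (SD, n = 8 each), a log2 fold change of 3.52 ± 0.17 (SE). Both tested relatives were lower in mature cells: Sash3, the lymphocyte adaptor, at 129 ± 14.8 CPM in mature cells and 154 ± 10.2 CPM in immature cells (log2 fold change -0.25, adjusted p = 0.00192), and Sash1 at 3.45 ± 0.479 CPM in mature cells and 5.05 ± 1.31 CPM in immature cells (log2 fold change -0.55, adjusted p = 0.00593). Among 20 other adaptors with SH2 or SH3 domains 7 were higher, 9 lower and 4 did not pass. Sla, which limits antigen receptor signalling, fell by 0.83, Fyb rose by 0.52 and Blnk, the adaptor of the B cell receptor, rose by 2.59 on the log2 scale (adjusted p = 1.47e-07, 6.38e-07 and 3.62e-06). Blnk was higher together with the B cell markers given above, whose part in its value was not tested.

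Zmynd15 (chr11:70459433-70466202, plus strand) encodes a MYND zinc finger protein known in mouse male germ cells as a repressor that works through histone deacetylases. It had 163, 93.6, 174 and 87.3 CPM in Xbp1flIre1fl mature libraries 1 to 4 and 146, 149, 187 and 161 CPM in Xbp1fl mature libraries 1 to 4. In immature cells Zmynd15 was at 1.86, 1.12, 1.32 and 1.51 CPM in Xbp1flIre1fl immature libraries 1 to 4 and 1.59, 0.990, 3.94 and 2.15 CPM in Xbp1fl immature libraries 1 to 4. The groups do not overlap, and Xbp1fl immature library 3 is again the highest of the immature libraries. Its means were 145 ± 36.1 CPM in mature libraries and 1.81 ± 0.940 CPM in immature libraries (SD, n = 8 each), a log2 fold change of 6.34 ± 0.24 (SE). Zmynd15 and Cxcl16 start head to head, and their first exons share 552 bases on opposite strands, and 10.6% of the 50-base words of Zmynd15 are shared with Cxcl16. Cxcl16, a membrane-bound chemokine, was itself at 1125 CPM in mature cells and 193 CPM in immature cells. As the strandedness of the libraries is not given, reads from that stretch cannot be assigned to either gene. Of 14 other MYND genes 3 were higher, 8 lower and 3 did not pass. Cbfa2t3, a corepressor and the highest in CPM, averaged 339 ± 28.03 CPM in mature cells and 196 ± 23.0 CPM in immature cells (log2 fold change 0.79, adjusted p = 3.38e-08). Zmynd19 fell by 0.97 and Egln1, an oxygen sensor, by 0.46 on the log2 scale (adjusted p = 6.08e-08 and 2.87e-07). Of 11 histone deacetylases, 1 was higher (Hdac11, log2 fold change 2.03, adjusted p = 3.63e-08), 7 were lower and 3 did not pass. Hdac9 and Hdac10 fell by 0.74 and 0.66 (adjusted p = 7.78e-06 and 4.15e-05).

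Gadd45b (chr10:80930073-80932204, plus strand) encodes a stress-induced protein that binds and activates Mekk4 (Map3k4), a kinase upstream of p38. Its values were 627, 418, 645 and 333 CPM in Xbp1flIre1fl mature libraries 1 to 4 and 512, 650.3, 713 and 572 CPM in Xbp1fl mature libraries 1 to 4. Gadd45b had 56.9, 55.5, 82.0 and 48.4 CPM in Xbp1flIre1fl immature libraries 1 to 4 and 45.8, 50.2, 63.9 and 43.3 CPM in Xbp1fl immature libraries 1 to 4. Mature libraries ranged 2.14-fold and immature libraries 1.89-fold, with no overlap. It averaged 559 ± 129 CPM in mature libraries and 55.7 ± 12.5 CPM in immature libraries (SD, n = 8 each), a log2 fold change of 3.32 ± 0.16 (SE). Gadd45a averaged 10.1 ± 2.1 CPM in mature cells and 4.02 ± 0.783 CPM in immature cells (log2 fold change 1.32, adjusted p = 3.80e-07), with 15.6% of its 50-base words shared with E230016M11Rik. Gadd45g averaged 39.9 ± 9.49 CPM in mature cells and 29.3 ± 4.01 CPM in immature cells (log2 fold change 0.43, adjusted p = 0.00434), a call that was lost with library sizes alone (log2 fold change 0.21, adjusted p = 0.108). Gadd45gip1, a mitochondrial ribosome protein that binds the family, fell by 0.65 (adjusted p = 4.41e-06). The 16 partners of the family did not move as one: 3 were higher, 10 lower and 3 did not pass. Map3k4 itself fell by 0.87 and the replication clamp Pcna by 0.55, while Cdkn1a, the cell cycle inhibitor p21, averaged 278 ± 67.8 CPM in mature cells and 25.2 ± 4.89 CPM in immature cells (log2 fold change 3.47; adjusted p = 1.42e-08, 4.36e-07 and 9.15e-11). Of 16 tested p53 targets 10 were higher and 6 did not pass, with the death receptor Fas and the kinase Plk2 higher by 3.56 and 2.25 (adjusted p = 1.26e-10 and 5.40e-09). With library sizes alone, which moved the median log2 fold change of all genes to -0.23, 5 of the p53 targets were called lower.

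**Figure D2:**
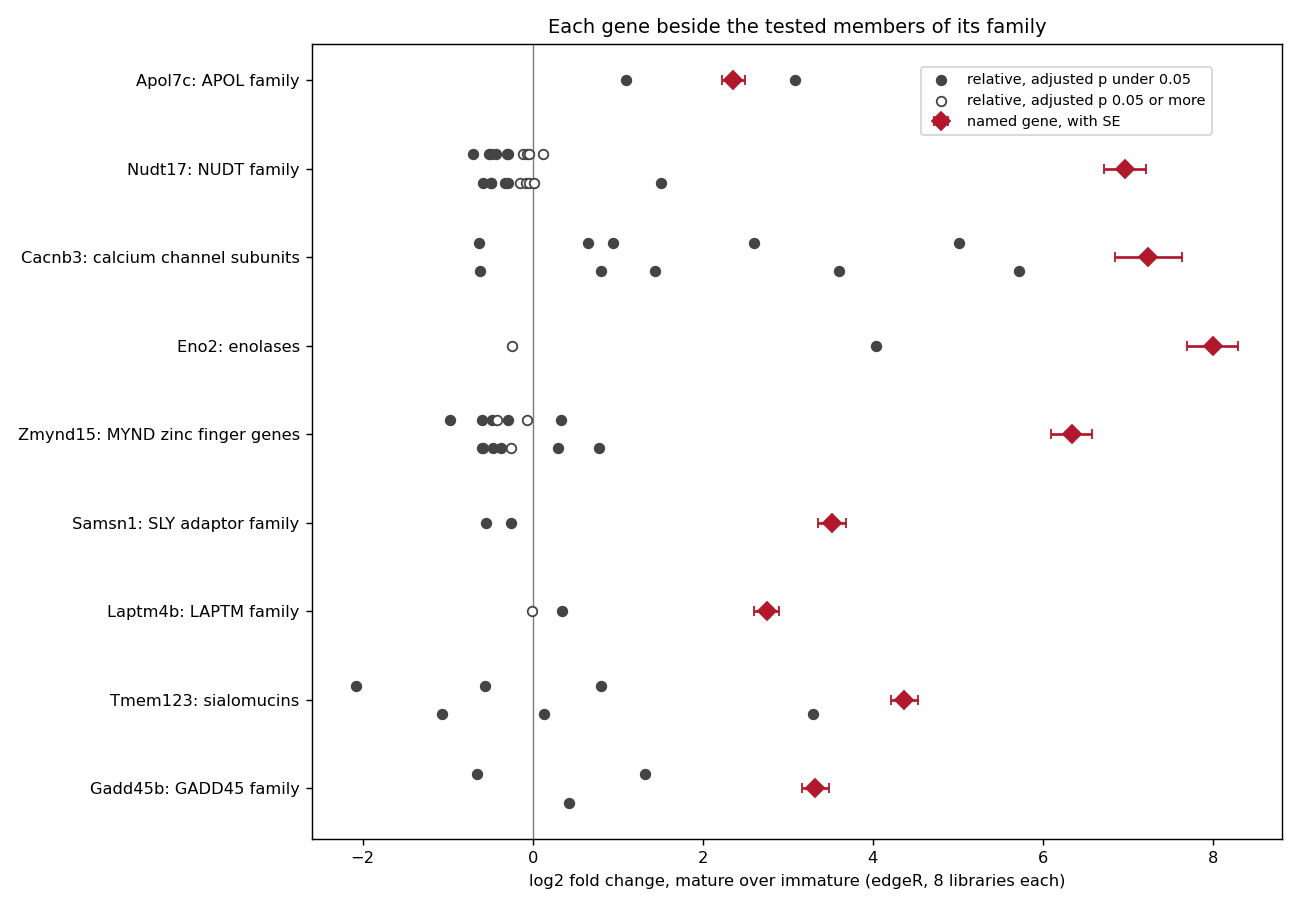
Log2 fold changes, mature over immature, of the 9 genes (red diamonds, bars are SE) and of the tested members of their families (filled where the adjusted p was under 0.05, open otherwise). Eno2, at 7.998, lies farthest to the right, and Apol10b is the family member above its named gene, at 3.08 against 2.36 for Apol7c.

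Compared per kilobase of exon, the genes spanned a wide range of levels in mature cells. Tmem123 was highest with 1506 ± 392 CPM per kb (SD, n = 8), then Apol7c with 836 ± 171, Gadd45b with 352 ± 81.4 and Laptm4b with 289 ± 67.9 CPM per kb. Cacnb3 followed with 163 ± 42.7, Samsn1 with 95.6 ± 23.8 and Nudt17 with 60.7 ± 15.9 CPM per kb. Zmynd15 with 32.9 ± 8.20 and Eno2 with 12.2 ± 3.67 CPM per kb were lowest. Within 1 SD of each mean, Gadd45b overlapped Laptm4b and Samsn1 overlapped Nudt17. These SDs are spreads between libraries, in which the genes of each pair varied together (r = 0.926 and 0.985). Within every mature library Gadd45b lay above Laptm4b and Samsn1 above Nudt17 per kb. The immature order began with Apol7c at 163 ± 27.6 and Tmem123 at 72.9 ± 5.33 CPM per kb. Cacnb3, at 1.11 ± 0.946 CPM per kb in immature cells, stood behind Samsn1 at 8.34 ± 1.38, the reverse of their mature order.

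The comparison of the genotypes uses what the choice of the genes did not: Xbp1flIre1fl against Xbp1fl within each stage, and the difference of the maturation change between the genotypes (the interaction). In mature libraries 0 of the 9 genes were called, beside 17 of all 11978 genes (0.142%). In immature libraries 0 of the 9 were called, beside 16 of all genes (0.134%). In the interaction edgeR's quasi-likelihood test called 0 of the 9 and 0 of all genes (0%), while 329 genes had an unadjusted p under 0.05 and DESeq2 called 0 as well. With edgeR's unpaired fit of all 16 libraries none of the 9 had an unadjusted p under 0.05 in any contrast, and adjusted p was 0.911 to 0.998 in mature libraries and 1.00 in the other two.

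All 9 differences in mature libraries were below 0, between -0.31 for Eno2 and -0.03 for Tmem123 on the log2 scale. For Tmem123 the 95% interval of the difference was -0.44 to 0.39. For Cacnb3, which had the highest biological coefficient of variation over all groups, it was -0.96 to 0.76. Within mature libraries alone Eno2 spread more, with a coefficient of variation of 30.1% against 26.2% for Cacnb3. Without Xbp1flIre1fl libraries 2 and 4 all 9 differences in mature cells were above 0, between 0.06 for Gadd45b and 0.38 for Tmem123. Those libraries were the lowest of the group for all 9 genes, so that leaving them out raises its mean by construction, and no test is given for it. In immature libraries the differences ran from -1.39 for Eno2, with an interval of -3.46 to 0.69, to 0.26 for Gadd45b, with an interval of -0.20 to 0.71. Eno2 had 1, 4, 2 and 2 counts in Xbp1flIre1fl immature libraries and 9, 4, 8 and 4 counts in Xbp1fl immature libraries. The unadjusted p of this difference was 0.174 with edgeR, 0.0203 with DESeq2's Wald test and 0.00309 with limma on the authors' log2 values, and adjusted p was 0.460 or more in each. Xbp1flIre1fl mature libraries 2 and 4 are not part of this difference but enter the spread shared by all groups. Without them edgeR again gave -1.39, with an unadjusted p of 0.0132 and an adjusted p of 0.543. The smallest interaction p was that of Gadd45b (log2 difference -0.53, interval -1.16 to 0.10, unadjusted p = 0.0933). Mature and immature libraries of the same genotype and number deviated together, and with that pairing in the fit the Gadd45b difference was -0.56 (unadjusted p = 9.53e-04, adjusted p = 1.00). Paired, the other 8 genes had unadjusted p from 0.0766 for Eno2 upward. Gadd45b changed by 3.06 on the log2 scale in Xbp1flIre1fl and by 3.59 in Xbp1fl cells. The intervals do not show that the genotypes are alike: for Nudt17 the interaction interval of -1.36 to 1.16 allows a difference of more than 1 log2 unit either way.

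**Figure D3:**
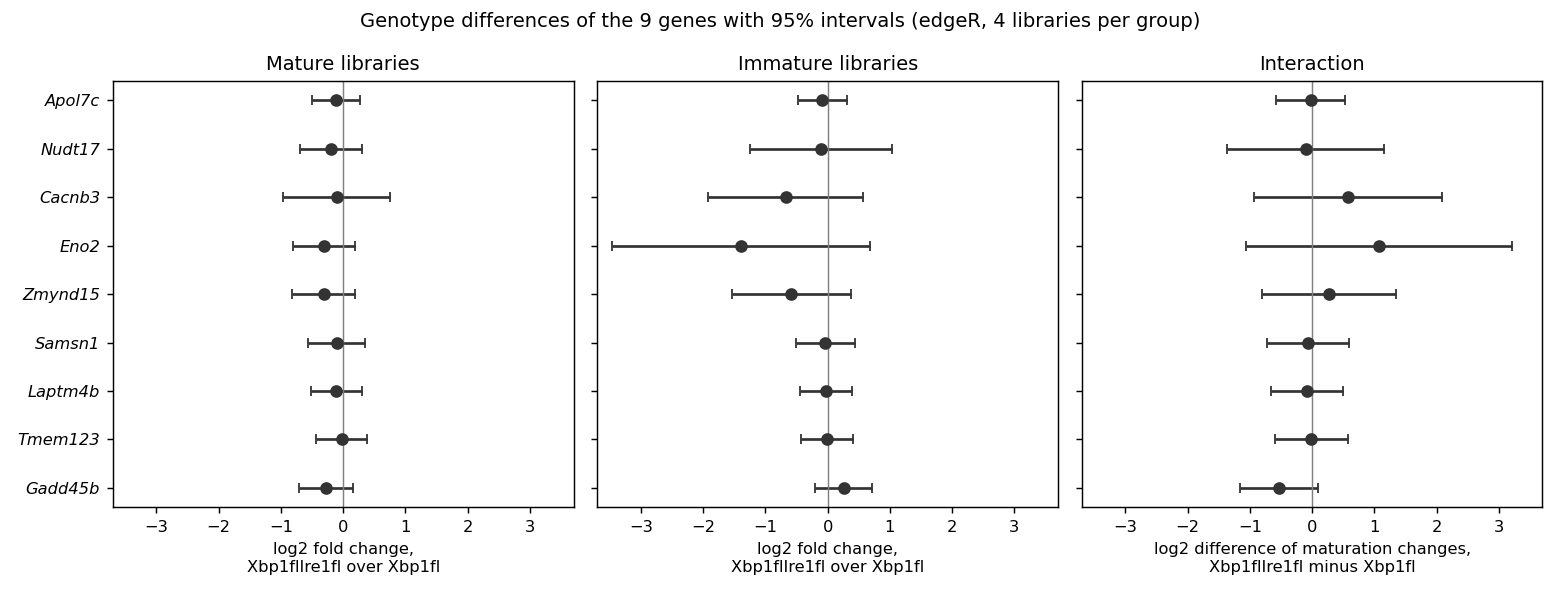
Log2 differences between genotypes with 95% intervals for the 9 genes, in mature libraries, in immature libraries and for the interaction (4 libraries per group). All intervals cross 0, and those of Eno2 and Cacnb3 in immature cells are wide.

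Within the mature groups the genes varied together from library to library. The deviations of log2 CPM from the group means correlated with r = 0.816 to 0.998 among the 28 pairs without Apol7c, over 8 mature libraries. The 8 pairs with Apol7c had r = 0.647 to 0.773. These points share libraries, depth and scaling, and the correlations are descriptions. For 8 of the 9 genes Xbp1flIre1fl mature libraries 2 and 4 were the lowest of all 8 mature libraries, the exception being Apol7c. Ccr7 was lowest in the same libraries, and over the 8 mature libraries its deviations correlated with those of the 9 genes at r = 0.652 for Apol7c, 0.882 for Eno2, 0.917 for Gadd45b and 0.965 to 0.991 for the other genes. Without those libraries, the pairs without Apol7c had r = 0.516 to 0.991 over 6 libraries, with a median of 0.929. The pairs with Apol7c then had r = 0.694 to 0.961, with a median of 0.806, inside the range of the other pairs. Some markers of other cells were also lower in these libraries than in libraries 1 and 3 of the group. Summed B cell markers were at 350.5 and 792 CPM in Xbp1flIre1fl mature libraries 2 and 4 and 822 and 1172 CPM in libraries 1 and 3. The sums in Xbp1fl mature libraries 1 to 4 were 592, 428, 719 and 339 CPM. Plasma cell markers summed to 118 and 242 CPM in Xbp1flIre1fl mature libraries 2 and 4 and 422 and 620.4 CPM in libraries 1 and 3, and cDC2 markers to 357 and 431 CPM against 464 and 525 CPM. T cell and erythroid sums were also lower in libraries 2 and 4. Macrophage, plasmacytoid dendritic cell, NK cell, neutrophil and stromal sums were not lower in both. In Xbp1flIre1fl mature libraries 1 to 4, macrophage markers summed to 1066, 597, 1239 and 1069 CPM. NK cell markers summed to 73.85, 118, 79.0 and 84.5 CPM, and cDC1 identity genes to 13310, 16970, 11480 and 15900 CPM. The part of other cells in the spread of the 9 genes was not tested. Among immature libraries the pairs correlated less evenly, from r = -0.206 to 0.906, with Cacnb3 and Zmynd15 the closest pair. Xbp1fl immature library 3 had the highest immature level for 5 genes: Apol7c, Nudt17, Cacnb3, Zmynd15 and Laptm4b.

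**Figure D4:**
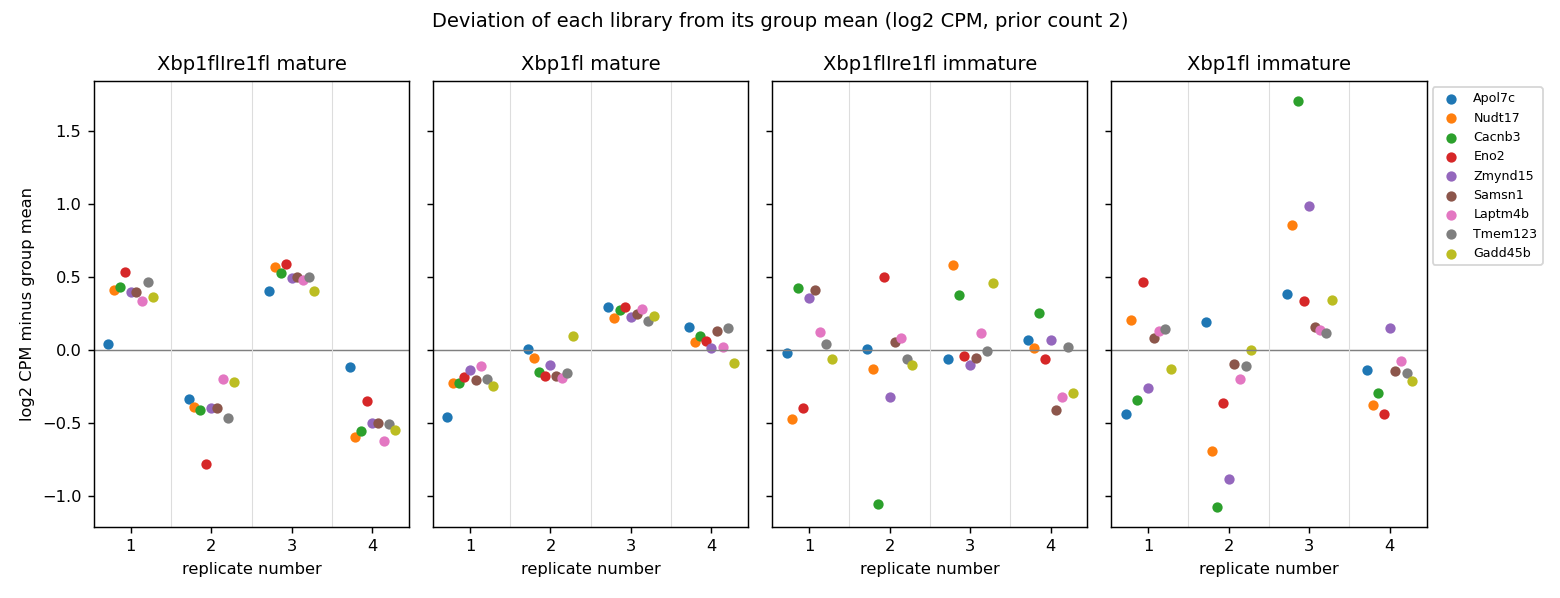
Deviation of each library from the mean of its group, in log2 CPM, for the 9 genes (colours), with mature groups on the left. In Xbp1flIre1fl mature cells libraries 1 and 3 lie above 0 and libraries 2 and 4 below 0 for all 9 genes, and Cacnb3 in Xbp1fl immature library 3 is the highest point.

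The genes whose pattern was most like that of each gene were named by Pearson r of log2 CPM. Over all 16 libraries r contains the difference between stages, and 1560 to 1790 other genes had r over 0.9 with each of the 9. The closest were Pfkfb3 for Samsn1 (r = 0.999), Mxd1 for Tmem123 (r = 0.999), Cd63 for Nudt17, Zfp872 for Eno2, Dscaml1 for Zmynd15 and Cxcl16 for Laptm4b (each r = 0.998). Cacnb3 was closest to Zmynd15 (r = 0.997), Gadd45b to Traf1 and Cdkn1a (each r = 0.996) and Apol7c to Ccng2 (r = 0.994). The second genes by this measure were Arhgap22 for Apol7c, Il21r for Nudt17, Socs2 for Cacnb3, Fam160a1 for Eno2, Slco5a1 for Zmynd15, Kcnk6 for Samsn1, Sqstm1 for Laptm4b and Tmem19 for Tmem123. Deviations from the group means leave out the mean difference between stages only. Those of the 9 genes still moved with Ccr7 in mature libraries (r = 0.652 to 0.991), so that likeness by this measure is not free of maturation. Without Xbp1flIre1fl mature libraries 2 and 4, r with the genes named by this measure was 0.875 to 0.972 over 14 libraries. By these deviations over all 16 libraries, Tmem123 was closest to Josd1 (r = 0.977) and Specc1 (r = 0.969). Samsn1 was closest to Kcnk6 (r = 0.970) and Pfkfb3 (r = 0.960), and Laptm4b to Cxcl16 (r = 0.968) and Mapre2 (r = 0.963). Eno2 was closest to Il4i1 (r = 0.955) and Mpp5 (r = 0.915), Nudt17 to Cd63 (r = 0.913) and Fam129c (r = 0.894), and Cacnb3 to Zmynd15 (r = 0.912) and Pdcd1lg2 (r = 0.903). Zmynd15 in turn had Cacnb3 and Dscaml1 (r = 0.897), Gadd45b had Arl5c (r = 0.920) and Cd70 (r = 0.909), and Apol7c had Dpf2 (r = 0.940) and Pla2g16 (r = 0.884). Tmem123 had 109 genes with r over 0.9 by this measure and Laptm4b 75, against 1 each for Apol7c, Nudt17 and Zmynd15. Dpf2 differed between stages by a log2 fold change of only 0.36, against 2.36 for Apol7c.

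The 9 genes lie on 7 chromosomes, with Apol7c, Cacnb3 and Laptm4b on chromosome 15. Of their 18 nearest tested neighbours, 13 were higher in mature cells, 2 lower and 3 did not pass, with a median log2 fold change of 0.69. Over all tested genes 33.4% were called higher and 34.2% lower. Adcy6, an adenylate cyclase 20763 bases to the left of Cacnb3, averaged 175 CPM in mature cells and 1.14 CPM in immature cells, a log2 fold change of 7.26 ± 0.31 (SE), close to the 7.24 of Cacnb3. Ddx23, a helicase 604 bases to the right, averaged 5.44 CPM in mature cells and 5.33 CPM in immature cells and did not pass (log2 fold change 0.03 ± 0.12 (SE)). On both sides of Zmynd15 the neighbours were higher: Cxcl16 by 2.54 ± 0.12 (SE) and Tm4sf5, a tetraspanin-like membrane protein, by 4.38 ± 0.16 (SE). The same held for Nudt17, whose last bases overlap the end of Pias3, a SUMO ligase, by 4 bases: Pias3 changed by 2.16 ± 0.12 (SE) and Polr3c, an RNA polymerase III subunit, by 1.62 ± 0.10 (SE). Next to Tmem123, Birc2, an inhibitor of apoptosis, changed by 2.61 ± 0.11 (SE). Mmp7, a matrix metalloproteinase on the other side, had 176 counts in mature and 2 in immature libraries, a ratio of 107 with a 95% counting interval of 29.1 to 888. Mmp7 passed the filter on low counts through its mature libraries only. Apol10b, 50502 bases from Apol7c, is given above. On the other side of Apol7c the nearest tested gene, 1110038F14Rik, lies 573872 bases away and changed by 0.54 ± 0.06 (SE). The neighbours of Eno2 (Atn1, 0.59 ± 0.11 (SE), and Spsb2, 0.23 ± 0.10 (SE)) were less changed. So was Nrip1, 265118 bases from Samsn1 (0.79 ± 0.14 (SE)), and Slc39a3, 96333 bases from Gadd45b, changed by 0.19 ± 0.07 (SE). The calls of Spsb2 and Slc39a3 were lost with upper quartile scaling (log2 fold change 0.11 and 0.07) and in 12 and 7 of the 16 fits that leave out 1 library. Hspa13 beside Samsn1 (0.08 ± 0.08 (SE)) and Mtdh beside Laptm4b (0.03 ± 0.05 (SE)) did not pass. The 2 lower neighbours were Matn2 beside Laptm4b, at -0.72 ± 0.24 (SE), and Lmnb2 beside Gadd45b, at -0.67 ± 0.09 (SE). Without Xbp1flIre1fl mature libraries 2 and 4 Matn2 was no longer called (log2 fold change -0.58, adjusted p = 0.0596).

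**Figure D5:**
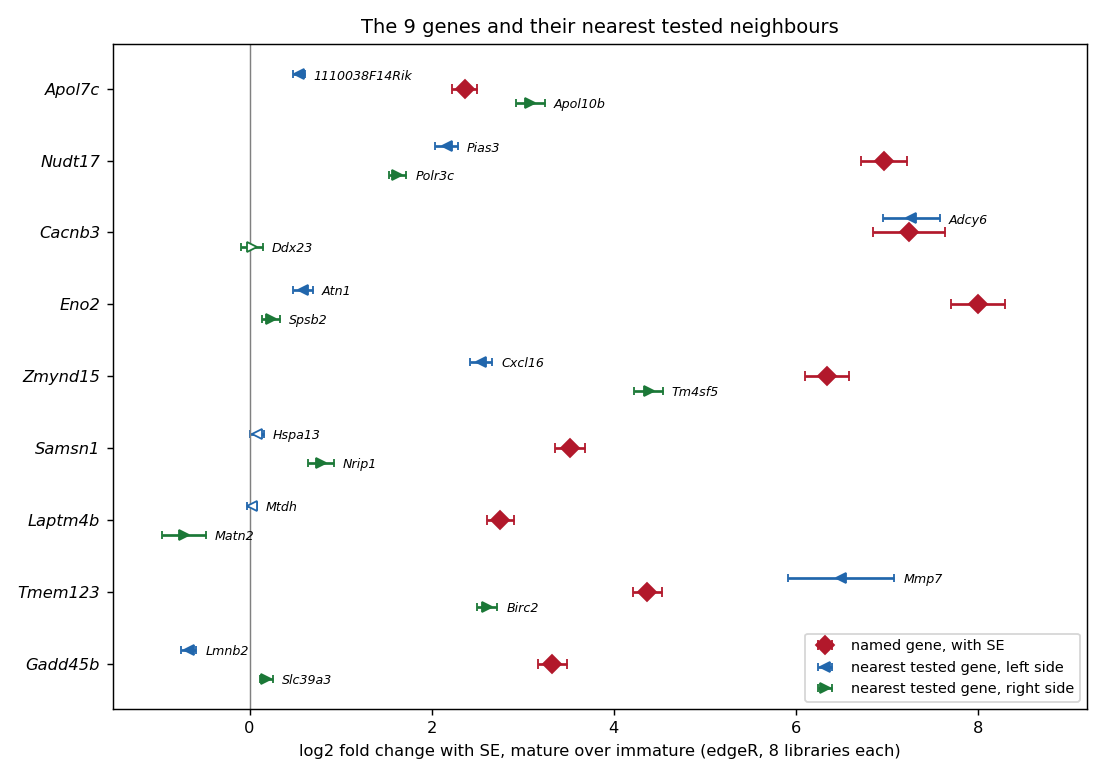
Log2 fold changes with SE, mature over immature, of the 9 genes (red diamonds) and of the nearest tested gene to the left (blue) and right (green) on the chromosome; open symbols did not pass the test. Adcy6 lies beside Cacnb3 above 7, and Matn2 and Lmnb2 lie below 0.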

How the data were processed

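The authors deposited whole-number counts per gene and a table of log2 values for the same 16 libraries. Per the submitters' processing notes, the tools were TopHat2 2.1.0, Trimmomatic 0.35, limma 3.42.2, SAMtools 0.1.19 and FastQC 0.11.4, with the mm10 build. The counter, its annotation and the strandedness are not given in the sources used here. Reads shared by similar or overlapping genes may therefore be split or lost.

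Counts were filtered (edgeR's filterByExpr), scaled by TMM and fitted with edgeR 4.0.16 (quasi-likelihood F-test, robust, 1 term per group, Benjamini-Hochberg over 11978 genes). Each SE was obtained from its F statistic, as the size of the log2 fold change over the root of F. DESeq2 1.42.0 and limma 3.58.1 (also on the deposited log2 values) were alternatives. Log2 CPM used a prior count of 2. Replicate libraries were not copies of each other: chi-square per degree of freedom was 5.23 to 57.1 over 24 pairs within groups. Same-numbered libraries were taken as pairs within a genotype, since all 8 such pairs had r over 0.1 (0.290 to 0.604) for deviations from the group means. This pairing comes from the data, not from the labels, and the paired fit was an alternative. Positions and exon lengths are from GENCODE M21 (GRCm38).

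The 9 genes and the gene lists were chosen with earlier results of these data known. Beside the 9, a rule named every tested gene of a family with 5 or fewer tested genes, otherwise the 3 with the smallest adjusted p and the highest in CPM. In other lists it named the 3 with the smallest adjusted p, in lists of other cell types the highest in CPM, and beside each gene the nearest tested neighbours and the most similar genes. The scripts' fits were tested on simulated data.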

Additional observations from a re-analysis of the deposited data

Results flagged for a closer look

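Cacnb3 in Xbp1fl immature library 3 lay far from the other libraries of its group, at 13.5 CPM against 3.18, 1.86 and 3.28 CPM. Laptm4b in Xbp1flIre1fl immature library 4 was far below its group, at 65.4 CPM against 89.0, 86.5 and 88.5 CPM. In both cases the gap to the nearest library took up more of the whole range of the group than the critical value of Dixon's test for 4 samples allows. Of 36 gene and group combinations looked at, 2 were past it, and chance marks about 1 in 20 groups.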

How the results depend on the processing

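The maturation fold change of each of the 9 genes kept its direction in all 11 other settings and in all 16 fits that leave out 1 library. The genes were chosen on this contrast. Their lowest mature value was 2.90 (Apol7c) to 54.1 (Eno2) times the highest immature value. The direction could therefore hardly turn, and that it was kept is a description only. Mature Xbp1flIre1fl libraries 2 and 4 were the lowest of their group, and leaving them out raises its mean by construction. Without them the log2 difference in mature cells was above 0 for all 9 genes (Apol7c 0.0985, Nudt17 0.21, Cacnb3 0.30, Eno2 0.14, Zmynd15 0.0681, Samsn1 0.28, Laptm4b 0.24, Tmem123 0.38, Gadd45b 0.0563), and the interaction turned positive for 5 (Apol7c 0.18, Nudt17 0.31, Samsn1 0.31, Laptm4b 0.26, Tmem123 0.39). No gene of the 9 was called between genotypes or in the interaction in any setting. The number of all genes called between genotypes in mature libraries was 17, with 36 by DESeq2's Wald test, 152 without those libraries and 15 to 30 when 1 library was left out (30 without Xbp1flIre1fl mature library 2). In immature libraries it was 16, with 40 by DESeq2's Wald test, 25 by limma-voom and 27 without those libraries. The causes were not tested.

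Leaving out 1 library turned the sign of several differences, among them those of Cacnb3 in immature cells (-0.68 with all libraries) and in the interaction (0.57), which were 0.29 and -0.40 without Xbp1fl immature library 3. The log2 ranges in mature cells were Cacnb3 -0.29 to 0.0601, Laptm4b -0.28 to 0.0641, Samsn1 -0.28 to 0.0444, Tmem123 -0.20 to 0.13. In immature cells they were Apol7c -0.21 to 0.0607, Cacnb3 -0.96 to 0.29, Laptm4b -0.0874 to 0.0706, Nudt17 -0.36 to 0.30, Samsn1 -0.19 to 0.0851, Tmem123 -0.0662 to 0.0335. For the interaction they were Apol7c -0.18 to 0.10, Cacnb3 -0.40 to 0.86, Laptm4b -0.25 to 0.0895, Nudt17 -0.51 to 0.16, Samsn1 -0.25 to 0.0841, Tmem123 -0.19 to 0.14, Zmynd15 -0.19 to 0.50. Among genes that are not of the 9, the stage ranges were Ddx23 -0.0505 to 0.0883, Laptm5 -0.0299 to 0.0192, Mtdh -1.729e-04 to 0.0557. With upper quartile scaling, which moved the median of all genes to -0.13, Ddx23 was -0.094, Hspa13 -0.042 and Mtdh -0.093, and 3213 genes were called higher and 5237 lower (38.0% of calls higher, against 49.4%). With library sizes alone (median -0.23) Ddx23 was -0.20, Hspa13 -0.14, Mtdh -0.20 and Slc39a3 -0.039, with 2716 genes higher and 6091 lower (30.8% of calls higher). Of the genes of calcium entry from stores, 4 were called lower with upper quartile scaling and 4 with library sizes alone (2 in the TMM fit). With library sizes alone 18 Nudix genes were called lower (11 in the TMM fit), 15 glycolysis genes lower and 2 higher (8 and 4), 1 MYND gene higher (3) and 1 enolase lower (0). Laptm5 was 0.0087 with DESeq2's size factors and 0.00872 with its Wald test, and Alas2 was 0.0879 without mature Xbp1flIre1fl libraries 2 and 4.

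The 8 pairs of mature and immature libraries with the same genotype and number deviated together (r = 0.290 to 0.604). A fit with the number as a block within genotype, chosen after seeing the data, can give the stage and the interaction only. It called 4099 genes higher and 4248 lower and 0 in the interaction (552 with an unadjusted p under 0.05). It gave the Gadd45b interaction at -0.56 (unadjusted p = 9.53e-04, adjusted p = 1.00) and, among the genes named here, ended the stage call of Spsb2 (adjusted p = 0.0571) and added that of Mpo (adjusted p = 0.00813). Across genotypes the numbers did not pair (r = -0.221 to 0.382 over 16 pairs, 7 over 0.1). With the number as 1 block over all groups, the mature difference was -0.40 for Eno2 and -0.31 for Gadd45b (unadjusted p = 0.0338 and adjusted p = 0.587 for each) and -0.37 for Zmynd15 (unadjusted p = 0.0563). The Gadd45b interaction was -0.55 (unadjusted p = 0.0109, adjusted p = 1.00). Neither block called any of the 9 in these contrasts. Counts were lowest for Eno2 and Nudt17 in immature cells, with 34 and 151 counts over 8 libraries.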
